A study of Mus musculus with 12 samples.

Results

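The vascular endothelial growth factor (VEGF), angiopoietin and apelin receptor genes examined here were the ligand genes Vegfa, Vegfb, Vegfc, Angpt1 and Angpt2 and the receptor genes Kdr, Flt1, Nrp1, Tek and Aplnr. They are 10 of the 31053 genes listed in each library, and they were chosen by name, with earlier results of these data known. All 10 were found in all 12 libraries' gene lists. Ligands were followed in the cell classes that held their transcripts, and receptors in endothelial cells (ECs) set by marker genes.

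The libraries are droplet single-cell RNA-seq of the stromal vascular fraction (SVF), the cells of adipose tissue other than floating adipocytes, from epididymal (eWAT) and inguinal (iWAT) white adipose tissue of male mice aged 12 weeks. Each depot had 3 groups of 2 mice. WT-Veh were lean C57BL/6J mice given vehicle (methylcellulose), ob/ob-Veh were Lep ob/Lep ob mice given vehicle, and ob/ob-Rosi were Lep ob/Lep ob mice given rosiglitazone, an agonist of the nuclear receptor PPARγ, at 30 mg/kg by oral gavage, morning and evening, for 3 days. The ob allele is carried by every cell of the mouse, no lean mouse given rosiglitazone is among these libraries, and mature adipocytes, which floated, were removed before capture.

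VEGF-A is the chief growth and survival signal of ECs and acts through KDR (VEGFR-2), whereas FLT1 (VEGFR-1) binds VEGF-A and VEGF-B and can hold VEGF-A away from KDR. Neuropilin-1 (Nrp1) is a co-receptor of VEGF-A and of class 3 semaphorins, and VEGF-C acts on the lymphatic receptor FLT4 and on KDR. Angiopoietin-1 from perivascular and stromal cells activates the EC receptor TIE2 (Tek) and keeps vessels quiet, angiopoietin-2 is mostly an antagonist of TIE2 made by ECs that are remodelling, and APLNR, the receptor of apelin, marks growing and venous endothelium.

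For Kdr, Flt1 and Tek, receptor genes of ECs by textbook role, the 250 bases before the RefSeq transcription start (GRCm38.p6) are shown, 5′ to 3′ on the strand of the gene, because ETS factors drive endothelial genes through the core GGAA. Capitals mark GGAA or its reverse complement TTCC, searched on both strands; the same letters also lie within STAT sites.
Kdr (chr5:75978456-75978705, minus strand): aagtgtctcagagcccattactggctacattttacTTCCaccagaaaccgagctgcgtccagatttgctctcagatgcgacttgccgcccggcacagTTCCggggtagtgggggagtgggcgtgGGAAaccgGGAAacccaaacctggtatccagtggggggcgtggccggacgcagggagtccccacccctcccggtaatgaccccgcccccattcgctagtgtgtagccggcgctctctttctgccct
Flt1 (chr5:147726012-147726261, minus strand): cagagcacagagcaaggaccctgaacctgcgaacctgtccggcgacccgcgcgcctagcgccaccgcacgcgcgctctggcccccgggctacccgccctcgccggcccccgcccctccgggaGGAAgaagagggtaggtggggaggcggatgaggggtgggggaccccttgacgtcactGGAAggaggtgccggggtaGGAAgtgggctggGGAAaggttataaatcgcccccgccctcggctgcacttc
Tek (chr4:94739039-94739288, plus strand): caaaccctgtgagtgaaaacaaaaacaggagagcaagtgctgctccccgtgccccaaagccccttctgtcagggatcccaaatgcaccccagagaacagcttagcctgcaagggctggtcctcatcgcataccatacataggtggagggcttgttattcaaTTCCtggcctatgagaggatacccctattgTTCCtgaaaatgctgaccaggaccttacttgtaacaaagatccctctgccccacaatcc
Kdr and Flt1 each held 4 such cores and Tek held 2. Over 32851 promoters of this length the median was 3, 33.38% held at least 4 and 76.84% held at least 2, so these counts are common. The hypoxia core ACGTG or GCGTG, read on both strands, was found 2 times before Kdr, 1 time before Flt1 and not before Tek, and was present in 38.6% of all promoters. A match of letters is a description and not a binding site.

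The kept cells numbered 57613 in eWAT and 68482 in iWAT, and the libraries held 40933057 to 92475986 unique molecular identifier (UMI) counts in eWAT and 20132553 to 66818914 in iWAT. Over all kept cells, Nrp1 had 50290 UMIs in eWAT and 50961 in iWAT, Kdr had 17568 and 41133, and Aplnr had 937 and 2083. The fewest UMIs in iWAT were those of Vegfc, at 650. The ob allele truncates leptin and leaves its transcript in place. The 3′ tags do not read the allele, so the sequence of Lep reads cannot show it. For every 100 UMIs of the adipocyte gene Adipoq, the eWAT files of WT-Veh had 30.5 or 79.3 of Lep, ob/ob-Veh had 3.59 or 10.3, and ob/ob-Rosi had 259 or 361. The iWAT files had 20.5 or 31.4, 33.3 or 14.0, and 164 or 139, on as few as 12 Adipoq UMIs. The eWAT ratio was thus lowest in the ob/ob-Veh libraries. Whether the labels match the mice was not tested, and each group name in what follows means the libraries labelled so, on which every direction between groups rests. The iWAT library labelled WT-Veh 1 stood apart, with a median of 1132 UMIs per cell and a lymphocyte-led EC cluster that was set aside as mixed; each iWAT call of the 10 genes in the capillary EC-like, progenitor-like, preadipocyte-like and macrophage-like classes was kept without this library, a step not run for the cell sets chosen after seeing the data. The largest number of cell barcodes shared by any pair of libraries was 338, between eWAT ob/ob-Rosi 2 and iWAT WT-Veh 2.

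Levels are given as counts per 1e6 UMIs of the class in a library (CPM), from sums over at least 20 cells; classes were set by clustering without the 10 genes, and each class name means that the cluster carried the markers of that type. Receptor transcripts were highest in EC-like cells among the main classes for Kdr, Flt1, Nrp1, Tek and Aplnr in both depots, and so was the ligand Angpt2. Among the main classes, the other ligands were highest outside the EC-like class as a whole. Within it, arterial EC-like cells of iWAT held Vegfc at 28.1 to 105 CPM over 3 libraries, above APC-like cells there (4.77 to 12.6 CPM). Vegfa was highest in monocyte-like cells of eWAT and adipocyte progenitor cell (APC)-like cells of iWAT. In both depots Vegfb was highest in macrophage-like cells, and Vegfc and Angpt1 in APC-like cells. For Vegfb the lead was small, with overlapping ranges. Its mean was 24.2 CPM in macrophage-like and 20.3 CPM in APC-like cells of eWAT, and 20.4 and 19.2 CPM in iWAT. An eWAT cluster of 170 cells that the marker lists assigned to mural cells is not called so here, since the adipocyte genes Car3, Cidec, Cfd and Adipoq led it beside the mural markers Myh11, Acta2 and Tagln. On 15 and 10 UMIs it held Vegfb at 21.7 to 91.9 CPM and Angpt1 at 0 to 70.0 CPM over 4 libraries, with means above those of the named classes. EC-like cells carried all 10 EC markers, with a summed level of 6673 to 9151 CPM in eWAT and 6511 to 9669 CPM in iWAT.

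**Figure D1:**
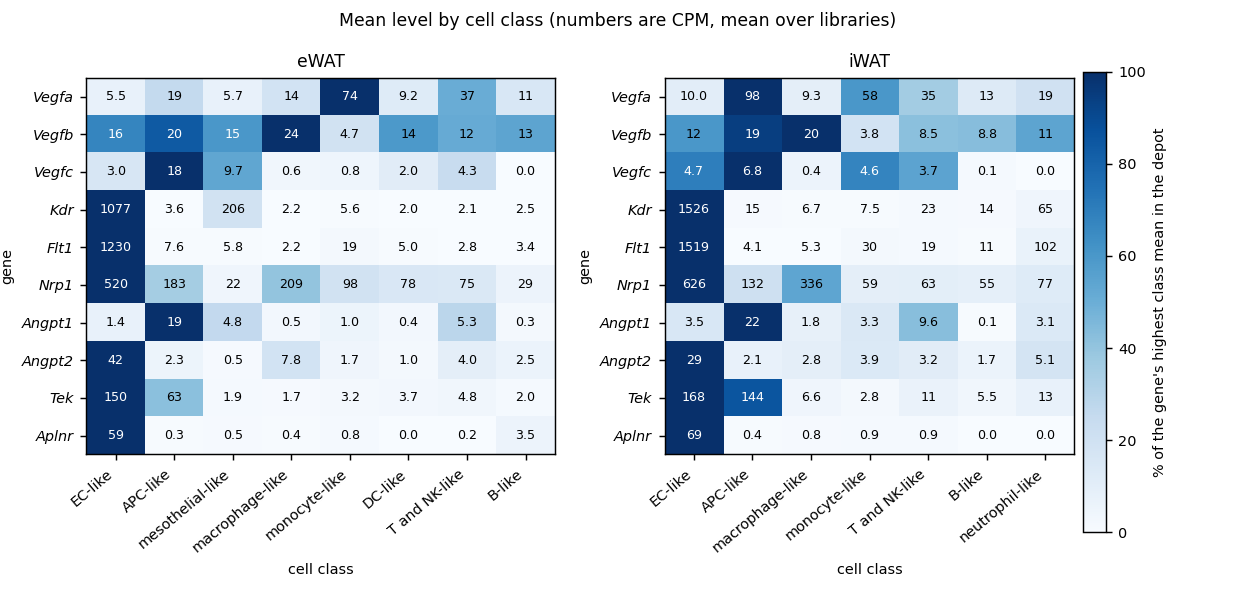
Heat maps of the level of each of the 10 genes by cell class in eWAT and iWAT; each cell prints the mean CPM over libraries and its colour is that mean as a percent of the gene's highest class mean in the depot. Kdr, Flt1 and Aplnr are darkest in EC-like cells, while Vegfc and Angpt1 are darkest in APC-like cells.

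Kdr, the main signalling receptor of VEGF-A, was held mostly by ECs and mesothelium. In EC-like cells it ranged from 781 to 1555 CPM over the eWAT libraries and from 979 to 2097 CPM over the iWAT libraries. Mesothelial-like cells of eWAT held 145 to 305 CPM, below every EC-like library. A Kdr UMI was found in 65.3% to 88.9% of eWAT EC-like cells, at a median of 1423 to 3816 UMIs per cell. It was found in 0% to 1.42% of T and NK-like cells, which should lack the gene and had a median of 857 to 2200 UMIs. By level, T and NK-like cells held Kdr at 0 to 5.62 CPM in eWAT but at 0 to 47.6 CPM in iWAT. In iWAT, neutrophil-like cells held 0 to 113 CPM (16 UMIs) and progenitor-like cells 2.99 to 37.1 CPM.

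Flt1, the decoy-like VEGF receptor, stood at 927 to 1516 CPM in eWAT EC-like cells and 824 to 2271 CPM in iWAT EC-like cells, and was detected in 69.4% to 80.5% and 81.7% to 87.9% of these cells. Outside the blood endothelium it was low, with 7.93 to 36.5 CPM in monocyte-like cells of eWAT. Neutrophil-like cells of iWAT held 76.1 to 138 CPM on 29 UMIs over 4 libraries, and T and NK-like cells there held 0 to 30.1 CPM. Aplnr in eWAT was found mostly in EC-like cells, which held 26.1 to 113 CPM, while B-like cells held 1 UMI in 1 library and no other main class exceeded 2.22 CPM.

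Nrp1 was shared with stromal and myeloid cells, and Tek with stromal cells. In eWAT, Nrp1 was 347 to 729 CPM in EC-like cells and 310 to 448 CPM in perivascular macrophage (PVM)-like cells, and these ranges overlap. In iWAT, Nrp1 was 398 to 1037 CPM in EC-like and 228 to 613 CPM in macrophage-like cells, which also overlap. Tek, although known as an endothelial receptor, was as high in progenitor-like APCs, which carry the markers Pi16 and Dpp4: 112 to 200 CPM against 106 to 177 CPM in EC-like cells of eWAT, and 146 to 265 CPM against 95.6 to 241 CPM in iWAT. T and NK-like cells had a Tek UMI in at most 3.03% of cells, and EC-like cells in 17.7% to 49.5% (eWAT).

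The ligands differed in source. Vegfa of eWAT stood at 24.5 to 219 CPM in monocyte-like cells, at 28.1 to 54.1 CPM in progenitor-like cells, at 16.4 to 77.4 CPM in T and NK-like cells and at 11.5 to 30.5 CPM in APC-like cells as a whole. In iWAT, Vegfa was 90.2 to 168 CPM in progenitor-like and 40.7 to 135 CPM in preadipocyte-like cells, with overlapping ranges. Angpt1 was 9.34 to 40.3 CPM in eWAT preadipocyte-like cells and 26.2 to 100 CPM in iWAT stromal cells marked by Fmo2. Vegfc was 34 to 73.6 CPM in the Fmo2 stromal-like cells of eWAT and 28.1 to 105 CPM in arterial EC-like cells of iWAT, which rested on 3 libraries.

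EC-like cells were not uniform. Lymphatic EC-like cells of eWAT, present at 30, 35 and 65 cells in WT-Veh 1 and in ob/ob-Veh 1 and 2, held Angpt2 at 493, 193 and 141 CPM, above every other class. In the same libraries these cells held Kdr at 652, 788 and 1004 CPM, while Flt1 was at 0, 3.50 and 60.1 CPM and Aplnr at 0 in all 3. The split between Kdr and Flt1 was thus within the endothelium, Flt1 being at or below 3.50 CPM in the lymphatic EC-like cells of 2 of 3 libraries. In iWAT, Aplnr was 94.3 CPM in the venous EC-like cells of the one WT-Veh library with enough of them, 245 and 104 CPM in ob/ob-Veh and 229 and 75.4 CPM in ob/ob-Rosi. Arterial EC-like cells held Aplnr at 0 CPM in WT-Veh 2 and 9.35 and 0 CPM in ob/ob-Rosi, below each venous value, and held Vegfc at 105, 28.1 and 58.7 CPM. These values describe clusters and were not tested.

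The makeup of the EC-like class differed between the groups, and each comparison in EC-like cells rests on it. In eWAT, 1 cluster with capillary markers was led by the adipocyte genes Scd1, Cfd, Car3, Retn and Cidec. In iWAT, 1 such cluster was led by Cfd and Car3 together with stromal genes such as Dpt, Efemp1, C3 and Pi16. These clusters, called adipocyte-led here, made up 76.9% and 79.7% of EC-like cells in the eWAT ob/ob-Veh libraries and at most 3.18% in the other eWAT libraries, and 71.4% and 81.1% against at most 0.277% in iWAT. The summed level of 7 adipocyte transcripts in eWAT EC-like cells was 36.6 and 53.2 CPM in WT-Veh, 1600 and 1166 CPM in ob/ob-Veh, and 31.7 and 21.4 CPM in ob/ob-Rosi. A difference of level between ob/ob-Veh and the other groups therefore cannot be told apart from this difference of cluster.

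The first question was whether receptor levels in ECs differed between lean and obese mice and with rosiglitazone. Kdr in eWAT EC-like cells stood at 836 and 1555 CPM in WT-Veh, 1085 and 1391 CPM in ob/ob-Veh, and 781 and 813 CPM in ob/ob-Rosi. Both ob/ob-Rosi libraries were below all 4 others, while WT-Veh and ob/ob-Veh overlapped. In iWAT, Kdr stood at 1502 and 1718 CPM in WT-Veh, 2097 and 1863 CPM in ob/ob-Veh, and 979 and 995 CPM in ob/ob-Rosi, with no overlap between the groups. The fitted Rosi effect, ob/ob-Rosi against ob/ob-Veh, was a log2 change of -0.56 ± 0.31 (SE, 2 libraries a group) in eWAT (edgeR quasi-likelihood test, adjusted p = 0.394) and -0.78 ± 0.30 in iWAT (adjusted p = 0.147), so neither passed 0.05 after adjustment over all genes.

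Flt1 in iWAT EC-like cells stood at 1352 and 824 CPM in WT-Veh, 2271 and 1951 CPM in ob/ob-Veh, and 1374 and 1342 CPM in ob/ob-Rosi. Both ob/ob-Veh libraries were above the others; the ob/ob effect, ob/ob-Veh against WT-Veh, was 0.76 ± 0.33 (log2; adjusted p = 0.203). In eWAT the Flt1 values were 1054 and 927, 1258 and 1412, and 1516 and 1212 CPM in the same order, with the WT-Veh libraries lowest and the other groups overlapping. Its ob/ob effect there was 0.33 ± 0.26 (adjusted p = 0.503).

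Nrp1 did not pass the test in EC-like cells as a whole. In eWAT it stood at 347 and 413 CPM in WT-Veh, 604 and 729 CPM in ob/ob-Veh, and 578 and 452 CPM in ob/ob-Rosi, and in iWAT at 458 and 398, 1037 and 843, and 564 and 456 CPM. The ob/ob-Veh libraries were highest in each depot. The ob/ob effect was 0.71 ± 0.28 (adjusted p = 0.168) in eWAT and 0.94 ± 0.29 (adjusted p = 0.0842) in iWAT.

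Tek followed this order in iWAT, with 127 and 95.6 CPM in WT-Veh, 241 and 208 CPM in ob/ob-Veh, and 187 and 152 CPM in ob/ob-Rosi, and an ob/ob effect of 0.81 ± 0.28 (adjusted p = 0.116). In eWAT it stood at 106 and 120, 177 and 176, and 175 and 145 CPM, the same order, with ob/ob-Rosi 1 close below ob/ob-Veh; its ob/ob effect was 0.53 ± 0.26 (adjusted p = 0.27).

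Aplnr was lowest in the WT-Veh libraries of each depot. It stood at 26.1 and 42.3 CPM in WT-Veh, 45.3 and 53.8 CPM in ob/ob-Veh, and 113 and 75 CPM in ob/ob-Rosi of eWAT, 3 levels that did not overlap. In iWAT they were 35.5 and 14.6, 140 and 60.3, and 116 and 50 CPM, so the ob/ob groups overlapped and both lay above WT-Veh. Against WT-Veh, Aplnr in ob/ob-Rosi differed by 1.34 ± 0.32 (log2; adjusted p = 0.144) in eWAT and by 1.86 ± 0.50 (adjusted p = 0.0866) in iWAT.

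**Figure D2:**
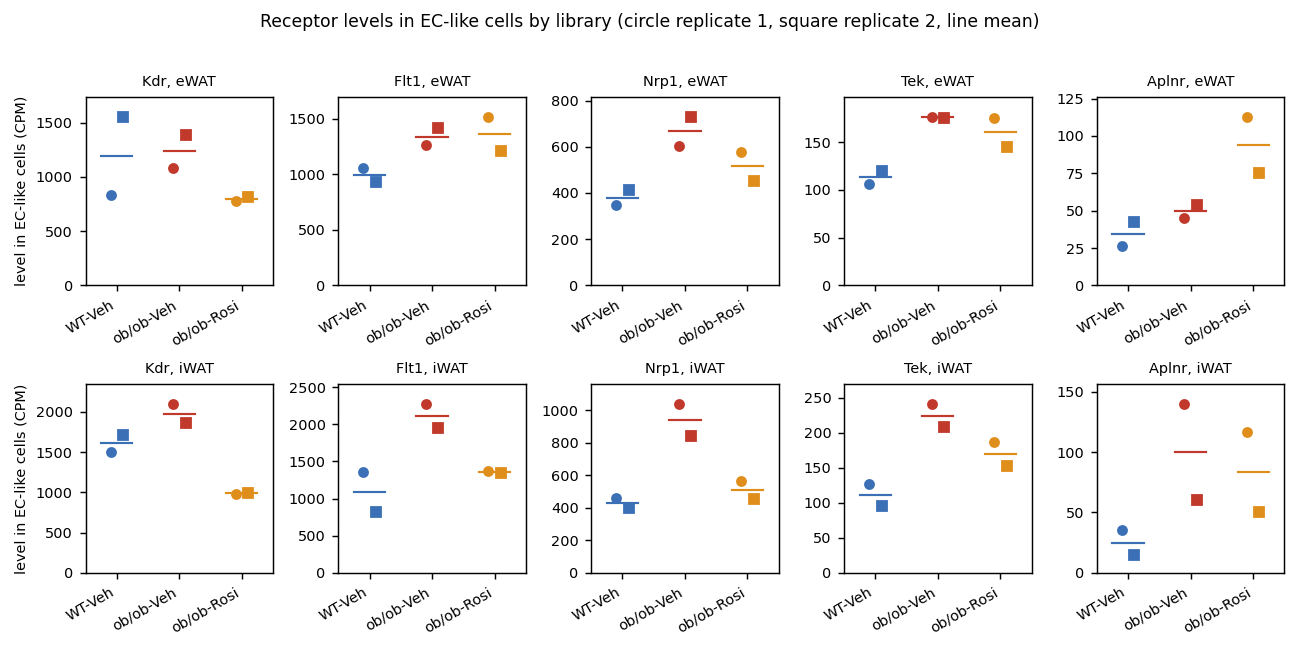
Level of Kdr, Flt1, Nrp1, Tek and Aplnr in EC-like cells, in CPM, for each library of eWAT and iWAT; circles are replicate 1, squares replicate 2, and the line is the mean of the 2. Kdr is lowest in both ob/ob-Rosi libraries of each depot, and Nrp1 is highest in both ob/ob-Veh libraries of each depot.

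The ligands within EC-like cells were Angpt2 and, at few UMIs, Vegfa, Vegfb, Vegfc and Angpt1. Angpt2 stood at 62.7 and 13.3 CPM in WT-Veh, 70.3 and 44.7 CPM in ob/ob-Veh and 34.6 and 27.2 CPM in ob/ob-Rosi of eWAT, and at 26.6 and 16.3, 15.5 and 26.9, and 50.8 and 35.2 CPM in iWAT. In iWAT both ob/ob-Rosi libraries were above all others. Of the 36 Angpt2 UMIs of eWAT WT-Veh 1, 31 came from lymphatic EC-like cells, as did 55 of 76 and 47 of 113 in ob/ob-Veh 1 and 2, while the other eWAT libraries had 0 to 3 such cells; their part was not tested. The Rosi effect on Angpt2 was -0.82 ± 0.51 (adjusted p = 0.448) in eWAT and 1.07 ± 0.40 (adjusted p = 0.13) in iWAT; the difference between the depots, from an interaction term over all 12 libraries, was 1.87 ± 0.75 (adjusted p = 0.72). Vegfa in eWAT EC-like cells was 0 and 7.25, 12 and 10.7, and 1.98 and 1.15 CPM, and its Rosi effect was -2.84 ± 0.83 (adjusted p = 0.095).

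In EC-like cells, 0 of the 8 genes tested in eWAT (Vegfc and Angpt1 had too few counts) and 0 of the 10 tested in iWAT passed edgeR's test in any of the 3 contrasts, which share their control libraries. A call needed an adjusted p no higher than 0.05 together with a 1.1-fold or larger change. Among all genes tested, the share called for the ob/ob effect, the Rosi effect and ob/ob-Rosi against WT-Veh was 3.04%, 3.2% and 0.162% in eWAT and 4.8%, 4.84% and 2.28% in iWAT. At an unadjusted p under 0.05 there were 1, 2 and 1 of the 8 genes in eWAT and 4, 4 and 6 of the 10 in iWAT. Over all genes, this threshold was passed by 2108, 1702 and 760 of 9850 in eWAT and 2464, 2615 and 1257 of 11335 in iWAT. DESeq2 called 0 in each eWAT contrast, Nrp1 and Aplnr for the ob/ob effect in iWAT, 0 for the Rosi effect there, and Aplnr against WT-Veh there. With the replicate number as a block, which the labels do not tie across groups, edgeR called 0, 2 and 1 in eWAT. In iWAT it called 4, 3 and 2 for the same contrasts, the ob/ob calls being Flt1, Nrp1, Tek and Aplnr, all higher in ob/ob-Veh. For DESeq2 and the block, the share of all genes called is not given here, so these counts lack a background. With 2 mice a group and 3 residual degrees of freedom, a change that did not pass is not shown to be absent.

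Without the adipocyte-led clusters, a choice made after seeing the data, 48 and 102 ECs were left in the eWAT ob/ob-Veh libraries, of which 35 and 65 carried lymphatic markers. In these cells the ob/ob effect in eWAT was -1.64 ± 0.32 for Nrp1 (adjusted p = 0.003), -1.44 ± 0.33 for Flt1 (adjusted p = 0.00832), -2.45 ± 0.56 for Aplnr (adjusted p = 0.00817) and 1.90 ± 0.53 for Angpt2 (adjusted p = 0.0275), so that Nrp1, Flt1 and Aplnr took the opposite direction to the whole class. There 13.2% of all genes were called. The Rosi effect in the same cells, where 12.1% of genes were called, was 2.07 ± 0.32 for Nrp1 (adjusted p = 0.000444), 1.89 ± 0.33 for Flt1 (adjusted p = 0.00118), 3.82 ± 0.51 for Aplnr (adjusted p = 0.000122), -2.01 ± 0.51 for Angpt2 (adjusted p = 0.0148) and -1.60 ± 0.47 for Vegfb (adjusted p = 0.0372). Kdr there had a Rosi effect of 0.06 ± 0.33 (adjusted p = 0.941) and Tek an ob/ob effect of -0.26 ± 0.31 (adjusted p = 0.64), neither in the direction of the whole class. Lymphatic EC-like cells were 30 of the WT-Veh 1 cells and at most 3 of any ob/ob-Rosi library, so the remaining cells also differ in kind between the groups. In iWAT the same step left Aplnr higher in ob/ob-Veh than in WT-Veh by 2.23 ± 0.53 (adjusted p = 0.0189), where 6.31% of all genes were called. It was also higher in ob/ob-Rosi than in WT-Veh by 1.86 ± 0.45 (adjusted p = 0.0436, 2.11% called). Without a call, the iWAT ob/ob effect was 1.17 ± 0.35 for Nrp1 (adjusted p = 0.0581), 0.77 ± 0.39 for Flt1 (0.276) and 0.76 ± 0.34 for Tek (0.211). The iWAT Rosi effect on Kdr was -0.86 ± 0.38 (adjusted p = 0.188), so these kept the direction of the whole class. Of the 28 and 112 iWAT ob/ob-Veh cells left, 21 and 76 were venous EC-like. In WT-Veh these were 72 of 347 and 18 of 1020, and in ob/ob-Rosi 118 of 1801 and 39 of 1431. The part of this in the iWAT values of Aplnr, Nrp1, Flt1, Tek and Kdr was not tested.

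Among the cells with capillary markers, which made up 72.4% to 96.9% of EC-like cells in a library, 3 changes passed. In the contrasts without a call, the share of all genes called was 0.655% for ob/ob-Rosi against WT-Veh in eWAT, where 4 of 8 genes tested had an unadjusted p under 0.05 and DESeq2 called 0. It was 4.23% and 2.76% for the ob/ob and Rosi effects in iWAT. There, 3 and 2 of 9 had an unadjusted p under 0.05, and DESeq2 called 1 and 0. Of all genes, 838 of 9620 passed that unadjusted threshold in this eWAT contrast, and 2247 and 2369 of 11027 in the iWAT ones. Nrp1 in eWAT stood at 390 and 412 CPM in WT-Veh, 828 and 865 CPM in ob/ob-Veh, and 586 and 459 CPM in ob/ob-Rosi, without overlap; the ob/ob effect was 1.01 ± 0.27 (adjusted p = 0.0387), where 5.47% of genes were called. The adipocyte-led cluster held 160 of 162 and 400 of 407 capillary EC-like cells of ob/ob-Veh and 3 and 4 cells of WT-Veh, so this compares clusters as much as groups, as does the next change. Leaving out WT-Veh 1, WT-Veh 2, ob/ob-Veh 1 or ob/ob-Veh 2 raised its adjusted p to 0.215, 0.152, 0.218 or 0.177, and the call was lost when cells were thinned to 700 UMIs or doublets removed.

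Vegfa in capillary EC-like cells of eWAT fell with rosiglitazone, by 3.56 ± 0.86 on the log2 scale (adjusted p = 0.0315, 3.13% of genes called). It rested on 9 and 23 UMIs in ob/ob-Veh against 1 and 2 in ob/ob-Rosi, and on 0 and 12 in WT-Veh. DESeq2 did not call it, and leaving out ob/ob-Veh 1, ob/ob-Veh 2 or ob/ob-Rosi 2 gave adjusted p = 0.15, 0.205 or 0.33.

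Aplnr in capillary EC-like cells of iWAT was higher in ob/ob-Rosi than in WT-Veh by 2.07 ± 0.46 (adjusted p = 0.0321, 2.7% of genes called). It stood at 29.3 and 14.5 CPM in WT-Veh, 114 and 51.2 CPM in ob/ob-Veh, and 117 and 52.3 CPM in ob/ob-Rosi, so both ob/ob groups were above WT-Veh and overlapped each other. Different clusters held these cells: those led by Inhbb, Fads3 and Ffar2 had 214 and 3, 7 and 776, and 24 and 164 cells of WT-Veh, whereas those led by Kit and Adh1 had 1415 and 103, and 94 and 1166 cells of ob/ob-Rosi, and Aplnr was among the leading genes of the Kit-led cluster. Without ob/ob-Veh 1, ob/ob-Veh 2 or ob/ob-Rosi 1 the adjusted p was 0.079, 0.0841 or 0.147, and thinning to 700 UMIs also ended the call.

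**Figure D3:**
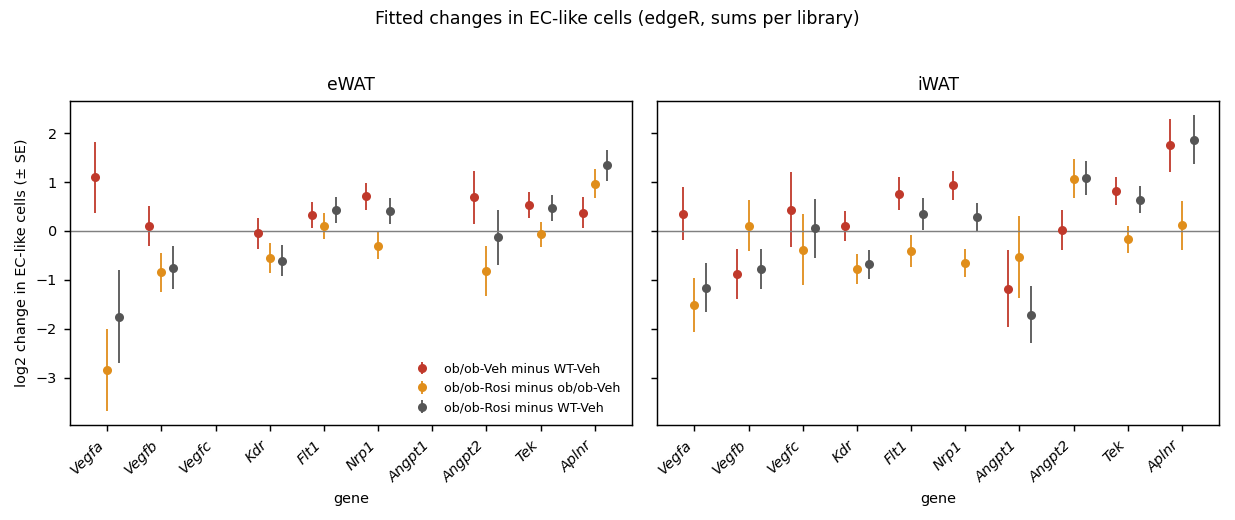
Fitted log2 changes (points) with their standard errors (bars) in EC-like cells for the 3 contrasts, which share libraries, in eWAT and iWAT. Nrp1, Tek and Aplnr lie above 0 for the ob/ob effect in both depots and Kdr below 0 for the Rosi effect in both. No adjusted p was at or below 0.05, and Vegfc and Angpt1 were not tested in eWAT. Without adipocyte-led clusters the eWAT ob/ob effect was below 0 on Nrp1, Tek, Flt1 and Aplnr, and the eWAT Rosi effect on Kdr was 0.06. Of the ob/ob-Veh cells left there, 35 of 48 and 65 of 102 were lymphatic EC-like, so kinds of EC differ between the groups. In iWAT without them, the ob/ob effects on Nrp1, Tek and Aplnr stayed above 0 and the Rosi effect on Kdr below 0. Of the iWAT ob/ob-Veh cells left, 21 of 28 and 76 of 112 were venous EC-like, against 72 of 347 and 18 of 1020 in WT-Veh.

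The second question was whether the cells that supply the ligands changed. The clearest change of the 10 genes was Angpt2 in macrophage-like cells of eWAT. It stood at 15.4 and 7.09 CPM in WT-Veh, 0.148 and 0.444 CPM in ob/ob-Veh, and 13.8 and 10.1 CPM in ob/ob-Rosi, which were 466 and 149, 2 and 6, and 312 and 369 UMIs. Both ob/ob-Veh values lay far below the others, and WT-Veh and ob/ob-Rosi overlapped. The fitted ob/ob effect was -5.42 ± 0.58 on the log2 scale (adjusted p = 0.000615), that of rosiglitazone was 5.52 ± 0.58 (adjusted p = 0.000552), and both held with any 1 library left out.

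Angpt2 was unevenly spread among the macrophage clusters, and the clusters were unevenly spread among the groups. Pooled over libraries it was 19.9 CPM in the cluster led by Mmp12, Gpnmb and Spp1 (lipid-associated macrophage, LAM-like), 17.3 CPM in the proliferating cluster led by Cenpf, 8.74 CPM in the cluster led by Ccl3, Cxcl2 and Tnf, and 0.126 CPM in the cluster led by Mmp9, Pla2g2d and Cd209g. The last held 1838 of 2987 and 1831 of 2632 macrophage-like cells of the ob/ob-Veh libraries and few of any other, and LAM-like cells were 0.268% and 0.646% of macrophage-like cells there against 13.9% to 33.1% elsewhere. In the cluster led by Lyz1 and Ear2, which every library held, Angpt2 was 1.62 and 1.84, 0.319 and 0.274, and 2.15 and 1.24 CPM, on 1 to 4 UMIs a library. Without LAM-like cells, a set chosen after seeing the data, the effects were -5.04 and 5.09 (adjusted p = 0.00102 and 0.00096). A lower level per cell and a shift between macrophage types cannot be told apart in the sums.

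The same drop was seen at lower level in eWAT APC-like cells, where macrophage transcripts moved alike. Angpt2 there stood at 3.51 and 2.44 CPM in WT-Veh, 0.708 and 0.539 CPM in ob/ob-Veh, and 2.73 and 3.88 CPM in ob/ob-Rosi, and passed for both effects (-2.25 ± 0.54, adjusted p = 0.032, and 2.42 ± 0.52, adjusted p = 0.019). The 8 macrophage markers, all detected in these cells, summed to 716 to 1042, 149 to 206, and 756 to 765 CPM in the 3 groups; their part in the Angpt2 values was not tested. Without WT-Veh 1, WT-Veh 2, ob/ob-Veh 1 or ob/ob-Veh 2 the ob/ob effect had adjusted p = 0.222, 0.0629, 0.124 or 0.191, and without ob/ob-Veh 1, ob/ob-Veh 2 or ob/ob-Rosi 2 the Rosi effect had 0.0862, 0.135 or 0.163. In iWAT macrophage-like cells Angpt2 was 4.97 and 2.09, 0.867 and 1.34, and 4.91 and 2.42 CPM, with ob/ob-Veh lowest. EdgeR called neither effect there, each had an unadjusted p under 0.05, and DESeq2 called the Rosi effect. Without LAM-like cells the iWAT changes of Angpt2 were 0.24 ± 1.00 and 0.29 ± 0.90 (adjusted p = 0.905 and 0.848), so the lower level in ob/ob-Veh was not seen there.

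Vegfb, a ligand of FLT1, was lower in macrophage-like cells of ob/ob-Veh than of WT-Veh in both depots, and higher in ob/ob-Rosi than in ob/ob-Veh. In eWAT it stood at 31.3 and 32 CPM in WT-Veh, 10.9 and 17.9 CPM in ob/ob-Veh, and 23.8 and 29.5 CPM in ob/ob-Rosi, with changes of -1.33 ± 0.27 (adjusted p = 0.00788) and 1.11 ± 0.27 (adjusted p = 0.0136). In iWAT it stood at 20.9 and 29.5, 12.8 and 11.4, and 23.1 and 24.4 CPM, with changes of -1.25 ± 0.28 (adjusted p = 0.0265) and 1.18 ± 0.28 (adjusted p = 0.0231). The ob/ob-Veh libraries were lowest in each depot without overlap. In iWAT a cluster led by Mmp9, Oas2, Cd209g and Cd209f, which was given no sub-name, held 2775 of 2851 and 2070 of 2159 macrophage-like cells of ob/ob-Veh, whereas PVM-like clusters held 71% and 67% of those of WT-Veh and 55.1% and 52.8% of those of ob/ob-Rosi. The eWAT cluster led by Mmp9, Pla2g2d and Cd209g did carry the PVM-like name, so the iWAT shares of PVM-like cells rest on naming, and different clusters hold the class in the groups. In eWAT, leaving out ob/ob-Veh 1 gave adjusted p = 0.0751 for the ob/ob effect and 0.115 for the Rosi effect, and leaving out ob/ob-Rosi 2 gave 0.077 for the latter. In iWAT, the ob/ob effect had 0.0962, 0.155 or 0.152 without WT-Veh 2, ob/ob-Veh 1 or ob/ob-Veh 2, and the Rosi effect 0.126, 0.14, 0.06 or 0.118 without ob/ob-Veh 1, ob/ob-Veh 2, ob/ob-Rosi 1 or ob/ob-Rosi 2. In iWAT without LAM-like cells, Vegfb differed by -1.22 ± 0.30 between ob/ob-Veh and WT-Veh and was no longer called (adjusted p = 0.0552). When cells were assigned singly from marker counts, without clusters, both iWAT calls of Vegfb were lost; thinning ended the eWAT Rosi effect and the iWAT ob/ob effect.

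In macrophage-like cells as a whole, 2 of 10 genes tested in eWAT were called for the ob/ob effect and 2 for the Rosi effect, where 27.1% and 28.8% of all genes were called, so the share of the 10 genes was below that of all genes. In iWAT, 3 of 9 genes were called for the ob/ob effect and 2 of 9 for the Rosi effect, against 14.3% and 22% of all genes. Besides Vegfb, these were Angpt1 (3.45 ± 0.80, adjusted p = 0.0291, ob/ob effect) and Tek (3.02 ± 0.40, adjusted p = 0.00563, and -1.77 ± 0.36, adjusted p = 0.0144). Tek stood at 0.957 and 1.93, 14.1 and 15.5, and 3.68 and 3.74 CPM, Angpt1 at 0.191 and 0.375, 2.60 and 5.83, and 1.23 and 0.425 CPM, both highest in ob/ob-Veh. The 7 APC markers in these macrophage-like cells summed to 906 and 1064, 6269 and 5707, and 1795 and 2223 CPM in the same order; their part was not tested.

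The Tek call for the ob/ob effect in iWAT macrophage-like cells had adjusted p = 0.077 and 0.0593 without ob/ob-Veh 1 and ob/ob-Veh 2. Its Rosi effect had 0.117, 0.0871, 0.0636 or 0.0899 without ob/ob-Veh 1, ob/ob-Veh 2, ob/ob-Rosi 1 or ob/ob-Rosi 2. For Angpt1, the change was 2.86 to 4.21 with 1 library left out, and its call was lost without WT-Veh 2, ob/ob-Veh 1 or ob/ob-Veh 2. Without LAM-like cells it was 3.62 ± 0.92 and no longer called (adjusted p = 0.0572). Both Tek calls stayed in that set (2.85 ± 0.44, adjusted p = 0.0117, and -1.72 ± 0.39, adjusted p = 0.0341). Vegfa, whose Rosi effect in iWAT macrophage-like cells was -0.29 ± 0.34 (adjusted p = 0.569), was called only in that smaller set, at -1.69 ± 0.40 (adjusted p = 0.0374, 11.3% of all genes called). Assigning cells singly ended the Angpt1 call and both Tek calls, and thinning ended that of Angpt1 and the Rosi effect on Tek.

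The APC classes of the groups were also made of different clusters. In eWAT, clusters led by Agt and by Il6 held 1683 and 1817, and 1034 and 544 preadipocyte-like cells of ob/ob-Veh, against 5 and 3, and 0 and 3 cells of WT-Veh. In iWAT, clusters led by Gm26523 and by Il6 held 1719 and 1693, and 1051 and 874 progenitor-like cells of ob/ob-Veh, against 4 and 8, and 6 and 3 of WT-Veh, and one led by Gas6 held 412 and 892 preadipocyte-like cells of ob/ob-Veh against 4 and 2. For each change between ob/ob-Veh and another group in an APC class, a lower or higher level per cell and this difference of cluster cannot be told apart in the sums.

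Angpt1, the activating ligand of TIE2, was higher in ob/ob-Veh than in WT-Veh in eWAT preadipocyte-like and iWAT progenitor-like cells, and lower in ob/ob-Rosi than in ob/ob-Veh in these, in iWAT preadipocyte-like cells and in eWAT APC-like cells. In eWAT preadipocyte-like cells it stood at 17.6 and 13.2 CPM in WT-Veh, 38.1 and 40.3 CPM in ob/ob-Veh, and 12.3 and 9.34 CPM in ob/ob-Rosi, with changes of 1.28 ± 0.29 (adjusted p = 0.0209) and -1.80 ± 0.29 (adjusted p = 0.00415). Both ob/ob-Veh libraries lay above the others and both ob/ob-Rosi libraries below. The fall with rosiglitazone held with any 1 library left out, while the rise had adjusted p = 0.153, 0.165 or 0.101 without WT-Veh 2, ob/ob-Veh 1 or ob/ob-Veh 2. In eWAT APC-like cells as a whole the Rosi effect was -1.54 ± 0.28 (adjusted p = 0.00861; 0.0642 without ob/ob-Rosi 2) and the ob/ob effect 0.99 ± 0.28 (adjusted p = 0.0602). All of these eWAT calls of Angpt1 were lost on thinning to 700 UMIs.

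In iWAT, Angpt1 stood at 7.88 and 4.42 CPM in WT-Veh, 31.6 and 32.5 CPM in ob/ob-Veh, and 3.52 and 1.57 CPM in ob/ob-Rosi in progenitor-like cells, with changes of 2.51 ± 0.42 (adjusted p = 0.0428) and -3.61 ± 0.40 (adjusted p = 0.00646). Leaving out WT-Veh 2, ob/ob-Veh 1 or ob/ob-Veh 2 gave adjusted p = 0.175, 0.493 or 0.318 for the first, and leaving out ob/ob-Veh 1 or ob/ob-Veh 2 gave 0.128 or 0.106 for the second. The Gm26523-led cluster, with Mrc1 and F13a1 among its leading genes, and one of 166 cells led by the macrophage genes Mrc1, Cd163 and Lyve1 together held 62.9% and 66.3% of progenitor-like cells of ob/ob-Veh. Without both, a choice made after seeing the data, the changes were 2.38 ± 0.40 (adjusted p = 0.0388) and -3.46 ± 0.38 (adjusted p = 0.00462), where 0.663% and 1.93% of genes were called. Preadipocyte-like cells held Angpt1 at 25.1 and 22.4, 72.4 and 60.1, and 27 and 19.8 CPM, and the Rosi effect was -1.51 ± 0.30 (adjusted p = 0.0444). This call had adjusted p = 0.45, 0.206, 0.0664 or 0.331 without ob/ob-Veh 1, ob/ob-Veh 2, ob/ob-Rosi 1 or ob/ob-Rosi 2. In each class the ob/ob-Veh libraries stood above all others. Thinning ended the Angpt1 call in preadipocyte-like cells and neither call in progenitor-like cells.

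Vegfa in eWAT APC-like cells as a whole rose in ob/ob-Veh and fell with rosiglitazone. It stood at 13.4 and 12.3 CPM in WT-Veh, 30.5 and 30.2 CPM in ob/ob-Veh, and 16 and 11.5 CPM in ob/ob-Rosi, with changes of 1.19 ± 0.28 (adjusted p = 0.0296) and -1.11 ± 0.28 (adjusted p = 0.0335). The ob/ob-Veh libraries did not overlap with the rest. Without WT-Veh 1, WT-Veh 2, ob/ob-Veh 1 or ob/ob-Veh 2 the rise had adjusted p = 0.123, 0.19, 0.228 or 0.0828, and the fall had 0.0503, 0.05, 0.261 and 0.105 without these and 0.153 without ob/ob-Rosi 2. Thinning to 700 UMIs ended both calls. Over the eWAT libraries Vegfa was 28.1 to 54.1 CPM in progenitor-like and 10.8 to 23.6 CPM in preadipocyte-like cells. Progenitor-like cells were 5.45% and 7.45% of the class in WT-Veh, 32.4% and 19.6% in ob/ob-Veh, and 8.16% and 2.41% in ob/ob-Rosi. Neither effect was called within either subclass, and the part of this mixture was not tested. An unadjusted p under 0.05 was seen for the ob/ob effect in both, and for the Rosi effect in preadipocyte-like cells.

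In iWAT preadipocyte-like cells Vegfa stood at 70.3 and 61.3, 103 and 135, and 49.3 and 40.7 CPM, with a Rosi effect of -1.40 ± 0.28 (adjusted p = 0.0444). Here, too, ob/ob-Veh was highest and ob/ob-Rosi lowest. The call had adjusted p = 0.418, 0.301, 0.0856 or 0.336 without ob/ob-Veh 1, ob/ob-Veh 2, ob/ob-Rosi 1 or ob/ob-Rosi 2. Vegfa in iWAT progenitor-like cells, at 168 and 133, 90.2 and 123, and 108 and 112 CPM, was not called. The Vegfa call was lost on thinning.

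Vegfc, the lymphatic growth factor, fell with rosiglitazone in eWAT preadipocyte-like cells. It stood at 19.1 and 14.6 CPM in WT-Veh, 26.1 and 38.7 CPM in ob/ob-Veh, and 10.4 and 9.34 CPM in ob/ob-Rosi, 3 levels without overlap, and the Rosi effect was -1.64 ± 0.29 (adjusted p = 0.00694; 0.0671 without ob/ob-Veh 2 and 0.0583 without ob/ob-Rosi 2). In APC-like cells as a whole the Rosi effect on Vegfc was -1.17 ± 0.31 (adjusted p = 0.0439). This had adjusted p = 0.0525, 0.0678, 0.337, 0.0522 or 0.217 without WT-Veh 1, ob/ob-Veh 1, ob/ob-Veh 2, ob/ob-Rosi 1 or ob/ob-Rosi 2. Thinning and scaling by library size alone also ended it.

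**Figure D4:**
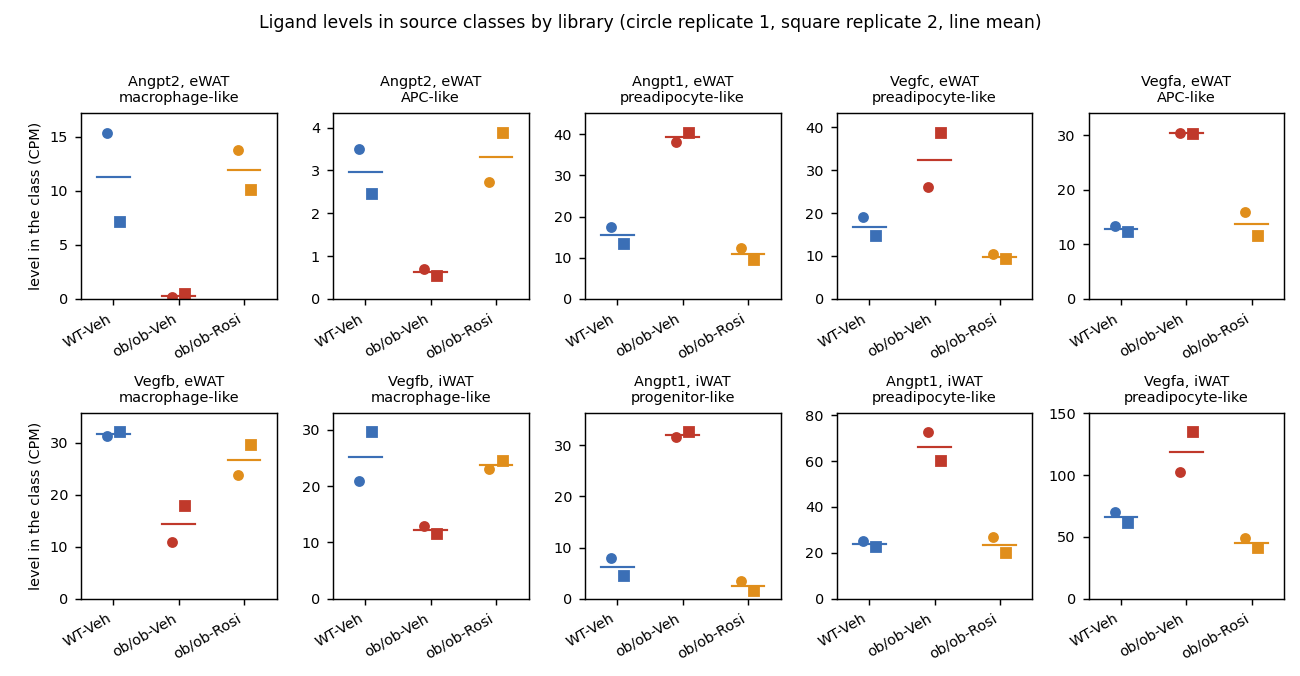
Level of ligand genes in the classes that hold them, in CPM, for each library; 6 panels are eWAT classes and 4 are iWAT classes, circles are replicate 1, squares replicate 2, and lines are means of the 2. Angpt2 and Vegfb of macrophage-like cells are lowest in ob/ob-Veh, whereas Angpt1 of APC classes is highest there.

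Receptor genes also moved in APC classes of eWAT. Flt1 in preadipocyte-like cells stood at 10.6 and 6.98 CPM in WT-Veh, 0.821 and 1.88 CPM in ob/ob-Veh, and 10.4 and 16.2 CPM in ob/ob-Rosi, with changes of -2.79 ± 0.46 (adjusted p = 0.00495) and 3.40 ± 0.45 (adjusted p = 0.00155) that held with any 1 library left out. All 10 EC markers were detected in APC-like cells of eWAT and summed to 33.1 to 34.9 CPM in WT-Veh, 13.5 to 27.1 CPM in ob/ob-Veh and 48.4 to 50 CPM in ob/ob-Rosi, and all 8 mural markers summed to 177 to 263, 26.1 to 60.1 and 190 to 356 CPM; their part in the Flt1 values was not tested. In APC-like cells as a whole, Flt1 changed by -2.45 ± 0.51 (adjusted p = 0.0177; 0.145 without WT-Veh 1 and 0.102 without ob/ob-Veh 1) and 3.07 ± 0.51 (adjusted p = 0.00546; 0.072 without ob/ob-Rosi 2).

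Tek in eWAT APC-like cells stood at 41.6 and 37.9 CPM in WT-Veh, 119 and 100 CPM in ob/ob-Veh, and 55.5 and 24.7 CPM in ob/ob-Rosi, with changes of 1.41 ± 0.37 (adjusted p = 0.0435) and -1.43 ± 0.36 (adjusted p = 0.038). Progenitor-like cells, which held more Tek in every library, made up 5.45% and 7.45% of APC-like cells in WT-Veh, 32.4% and 19.6% in ob/ob-Veh, and 8.16% and 2.41% in ob/ob-Rosi. Within progenitor-like cells Tek was 157 and 149, 177 and 200, and 172 and 112 CPM and was not called, and within preadipocyte-like cells it was 33 and 26.9, 84 and 71.3, and 45.6 and 22.3 CPM, with an ob/ob effect of 1.32 ± 0.35 (adjusted p = 0.0456). The 2 whole-class calls were lost without WT-Veh 1 (adjusted p = 0.175 and 0.0589), WT-Veh 2 (0.225 and 0.0558) or ob/ob-Veh 1 (0.231 and 0.205), and the second also without ob/ob-Rosi 2 (0.154). The preadipocyte-like call had 0.123, 0.232, 0.294 or 0.0853 without WT-Veh 1, WT-Veh 2, ob/ob-Veh 1 or ob/ob-Veh 2.

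Angpt2 in eWAT preadipocyte-like cells, between 0.628 and 4.03 CPM, followed its pattern in APC-like cells, with changes of -2.23 ± 0.53 (adjusted p = 0.029) and 2.32 ± 0.52 (adjusted p = 0.0201). The first had adjusted p = 0.191, 0.0549, 0.131 or 0.196 without WT-Veh 1, WT-Veh 2, ob/ob-Veh 1 or ob/ob-Veh 2, and the second 0.111, 0.164 or 0.154 without ob/ob-Veh 1, ob/ob-Veh 2 or ob/ob-Rosi 2.

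In counts, 4 of the 9 genes tested were called in eWAT APC-like cells for the ob/ob effect and 6 for the Rosi effect, against 7.27% and 8.12% of all genes. In eWAT preadipocyte-like cells 4 were called for each effect, against 8.02% and 8.61%. In iWAT APC-like cells edgeR called 0 for either effect, against 0.37% and 1.35% of all genes. There, 3 and 3 genes had an unadjusted p under 0.05, against 2241 and 3023 of all 13529 genes. DESeq2 called Angpt1 for the ob/ob effect and Angpt1 and Tek for the Rosi effect. The iWAT changes there were 1.4 ± 0.36 and -1.36 ± 0.34 for Angpt1 (adjusted p = 0.143 and 0.0808) and 0.70 ± 0.23 and -1.01 ± 0.23 for Tek (adjusted p = 0.206 and 0.0679). In iWAT progenitor-like cells 1 of 8 was called for each effect (0.834% and 2.21% of all genes). Preadipocyte-like cells of iWAT had 0 and 2 of 9 called (0.555% and 1.5%). For the ob/ob effect there, 3 of 9 had an unadjusted p under 0.05, as did 2136 of all 11525 genes. DESeq2 called 2 of the 9 for that effect.

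Of the 4 genes tested in progenitor-like and in mesothelial-like cells of eWAT, edgeR and DESeq2 called 0 for the ob/ob effect. There, 3.21% and 3.76% of all genes were called. An unadjusted p under 0.05 was found for 2 of 4 in each class, and for 1307 of all 8016 and 1652 of all 7507 genes. For the Rosi effect both tools also called 0 in these classes (2.33% and 1.31% of all genes). At an unadjusted p under 0.05 were 0 and 1 of the 4, against 1086 and 1397 of all genes. Against WT-Veh, progenitor-like cells of eWAT had 0.0125% of all genes called. For ob/ob-Rosi against WT-Veh, edgeR and DESeq2 called 0 of the genes tested in eWAT or iWAT APC-like and macrophage-like cells. At an unadjusted p under 0.05 there were 0 and 1 in APC-like and 0 and 2 in macrophage-like cells. Of all genes, 232 of 13109 and 410 of 13529 in APC-like and 333 of 13553 and 582 of 13069 in macrophage-like cells passed it. EdgeR called 0% of all genes in these classes.

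How a library's ligand transcripts were divided among classes follows cell numbers as well as levels. Macrophage-like cells held 84.6% and 66.2% of the Angpt2 UMIs of eWAT in WT-Veh, 1.61% and 3.53% in ob/ob-Veh, and 77.2% and 67% in ob/ob-Rosi, while EC-like cells held 6.53% and 9.78%, 61.3% and 66.5%, and 8.66% and 12.9%. Among captured cells, the main holder of Angpt2 transcripts thus differed between ob/ob-Veh and the other groups. For Vegfa of eWAT, APC-like cells held 10.7% and 27.2%, 57.9% and 55.5%, and 16.5% and 27.6%, and macrophage-like cells 74.9% and 45.8%, 14% and 17.6%, and 74.1% and 48.6%.

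Angpt1 and Vegfc were held mostly by APC-like cells whatever the group in eWAT, at 73.3% to 88.7% and 65.9% to 86.6% of their UMIs. In iWAT, macrophage-like cells held 32.5% and 44.3% of Vegfb UMIs in WT-Veh, 18.7% and 20.9% in ob/ob-Veh, and 47.5% and 43.3% in ob/ob-Rosi. The share in APC-like cells was 5.67% and 33.5% for WT-Veh, 79.2% and 69.3% for ob/ob-Veh, and 33.3% and 43.0% for ob/ob-Rosi. In iWAT WT-Veh 1, 47.9% of Vegfa and 47.2% of Angpt2 UMIs lay in cells with no class or in mixed clusters, so its shares rest on part of the library.

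**Figure D5:**
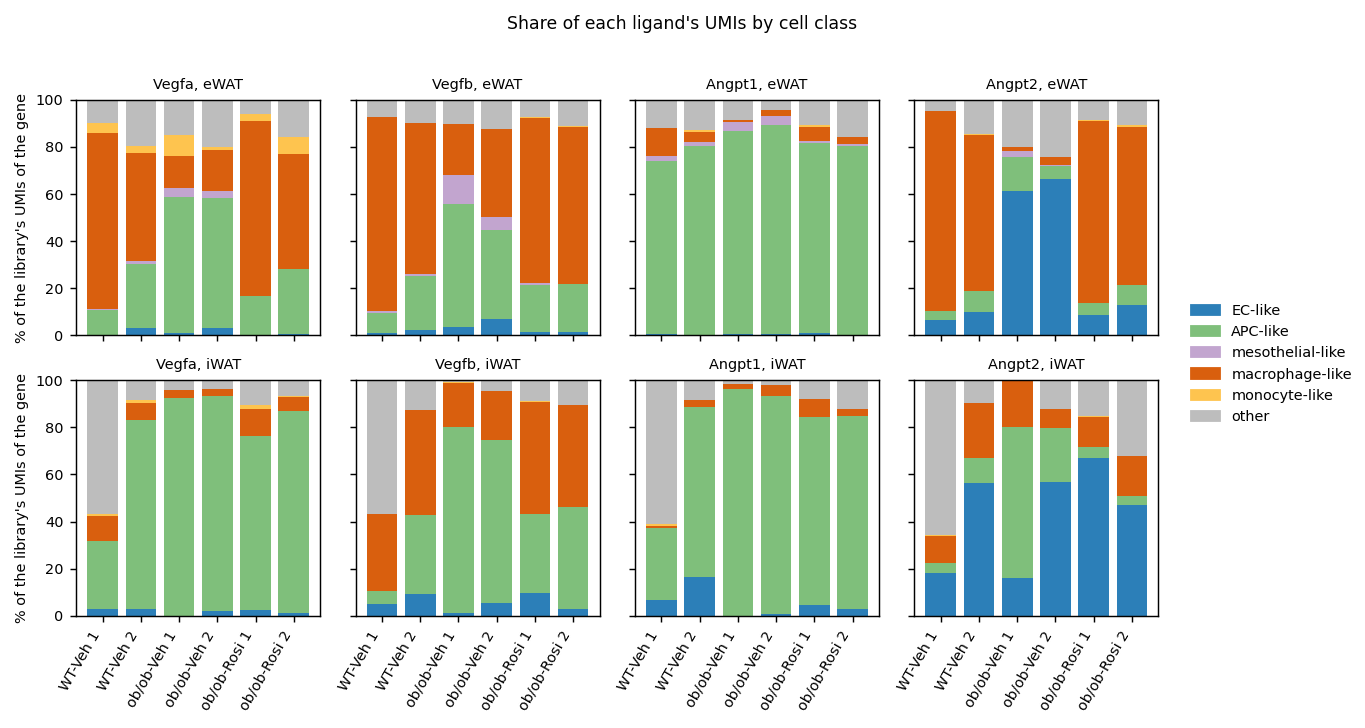
Stacked bars of the percent of each library's Vegfa, Vegfb, Angpt1 and Angpt2 UMIs that lay in each cell class, in eWAT and iWAT; the grey part holds the remaining classes, mixed clusters and cells with no class. In eWAT the macrophage part of Angpt2 is 1.61% and 3.53% in ob/ob-Veh and at least 66.2% in every other library.

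Other genes of these pathways were counted from lists chosen by name. In EC-like cells of eWAT the median ob/ob effect was 0.99 over the 5 other receptors and partners tested, 1.09 over the 4 class 3 semaphorins and 0.57 over the 10 tip cell and downstream genes, against 0.018 over all genes. The share of all genes called was 3.04% and 3.2% for the ob/ob and Rosi effects, and the 3 genes of these lists that passed for either fell with rosiglitazone: Flt4, the lymphatic VEGF-C receptor (-2.21, adjusted p = 0.0357), and the semaphorins Sema3d (-4.64, adjusted p = 0.0147) and Sema3a (-4.19, adjusted p = 0.0342). The 6 lymphatic markers in these EC-like cells summed to 1339 and 13.3 CPM in WT-Veh, 5187 and 2001 CPM in ob/ob-Veh, and 170 and 11.5 CPM in ob/ob-Rosi, and their part was not tested.

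In EC-like cells of iWAT, where 4.8% and 4.84% of all genes were called, the ob/ob effect was up for Plxnd1, a semaphorin receptor (2.44, adjusted p = 0.0203), Sema3c (4.84, adjusted p = 0.00096) and the tip cell gene Esm1 (3.74, adjusted p = 0.00387), and down for Apold1 (-1.86, adjusted p = 0.0491). With rosiglitazone, the apelin gene Apln (2.20, adjusted p = 0.0399) and the FLT1 ligand gene Pgf (5.12, adjusted p = 0.0239) rose and Sema3c fell (-2.87, adjusted p = 0.00832). The 7 APC markers in these cells summed to 1114 and 1580, 4694 and 4529, and 1609 and 1985 CPM. Of the 14 hypoxia genes listed, 12 were tested, and for the ob/ob effect Pfkfb3 rose (1.34) while Slc2a1 (-3.34) and Ndrg1 (-1.34) fell; in eWAT the 1 call was Pfkfb3, which rose (1.64, adjusted p = 0.0134).

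In eWAT APC-like cells, where 7.27% and 8.12% of all genes were called, other ligand genes rose in ob/ob-Veh: Apln (3.75, adjusted p = 0.0037), Pgf (3.39, adjusted p = 0.00985), Angpt4 (2.44, adjusted p = 0.0297) and Sema3c (1.98, adjusted p = 0.0467), while Esm1 fell (-6.22, adjusted p = 0.00374). With rosiglitazone Apln (-3.57), Angpt4 (-2.06), Pgf (-1.91), Sema3e (-2.77), Sema3c (-2.16) and Sema3b (-1.45) fell and Esm1 rose (6.13). The 1 call among the 13 hypoxia genes tested there, over both effects, was Adm (-1.53), which fell with rosiglitazone. Of the 13 dissociation-response genes, 5 rose in ob/ob-Veh and 5 fell with rosiglitazone; their part in the ligand values was not tested. In eWAT preadipocyte-like cells Angpt4 (4.50), Apln (4.22), Pgf (3.40) and Sema3c (2.49) were also up and Esm1 (-5.62) down for the ob/ob effect, and Apln (-4.06), Sema3e (-3.02), Sema3c (-2.53) and Sema3b (-1.47) down for the Rosi effect. In iWAT progenitor-like cells Pgf was up for the Rosi effect (2.41, adjusted p = 0.0146). In eWAT mesothelial-like cells Sema3f was up for the ob/ob effect (1.25, adjusted p = 0.0277), where the hypoxia gene Ldha was down (-1.42, adjusted p = 0.0282). Of the dissociation-response genes, Hspa1b was up for the ob/ob effect there (1.96, adjusted p = 0.00586). Hspa1b (-2.29, adjusted p = 0.00785) and Egr1 (-3.18, adjusted p = 0.0394) were down for the Rosi effect. Of all genes 3.76% and 1.31% were called for these effects.

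In capillary EC-like cells the listed genes called were, for the ob/ob effect, Apln (2.44), Plxnd1 (1.80) and Pdgfb (1.29) in eWAT and Sema3c (5.15) in iWAT, all up. For the Rosi effect they were Notch1, down in eWAT (-1.09) and iWAT (-1.19), and in iWAT Sema3c (-3.21), Pgf (4.83) and Esm1 (4.11). For ob/ob-Rosi against WT-Veh, Plxnd1 was up in both depots (1.79 and 2.21), and Esm1 (2.15) and Tie1 in iWAT. Plxnd1 was up in that contrast in iWAT EC-like cells as a whole as well (2.09, adjusted p = 0.0468). These comparisons rest on the same clusters as those of the 10 genes.

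The ob/ob and Rosi effects in EC-like cells were compared between depots by an interaction term. Of the 9 genes tested, edgeR and DESeq2 called 0 for either effect, where edgeR called 0.592% and 0.00925% of 10809 genes. Angpt2 for the Rosi effect was the 1 gene of the 9 at an unadjusted p under 0.05. That threshold was passed by 699 and 645 of the 10809 genes for the ob/ob and Rosi effects. The largest differences, iWAT minus eWAT, were 1.35 ± 0.73 for the ob/ob effect on Aplnr (adjusted p = 0.887) and 1.87 ± 0.75 for the Rosi effect on Angpt2 (adjusted p = 0.72). The iWAT files had been filtered before deposit and the eWAT files had not, so depots differ in handling as well.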

How the data were processed

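SVF from biopsies of 300 mg of tissue was digested with type II collagenase, freed of floating adipocytes and red cells, and loaded on the 10x Genomics 3′ v3.1 platform. Per the labels and the submitters' processing notes, the authors used bcl2fastq 2.19.1.403 and Cell Ranger 3.0.2 with the mm10 genome and deposited raw UMI counts per gene and barcode, without normalization; no step against free RNA is given in the sources used here. The iWAT files held no barcode with 25% mitochondrial UMIs or more or above 22000 UMIs.

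Kept cells had between 700 and 22000 UMIs, between 200 and 6000 genes, and under 25% mitochondrial UMIs. Each depot was clustered (scanpy 1.11.5, igraph 0.11.9, Python 3.11.15) on 2000 variable genes without the 10 genes, 25 components and 20 neighbours, by Leiden at resolution 1; EC-like and APC-like cells were clustered again (15 components, resolution 0.6). Clusters were named from marker lists, clusters with several listed markers of another lineage among their leading genes were set aside as mixed, and this rule was adjusted after the clusters had been seen. Adipocyte and PVM markers were not used in it, so adipocyte-led EC-like clusters and 2 progenitor-like clusters led partly by macrophage genes stayed in their classes and were left out in added fits. Doublets were kept and Scrublet calls removed as an alternative. In eWAT WT-Veh 2 its automatic threshold marked 0% of cells, so the highest scores up to the expected 5.18% were taken.

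For each class, the counts of a library's cells were added up (20 cells or more) and the 3 groups of a depot were fitted in 1 model by edgeR 4.0.16 under R 4.3.3 (TMM, filterByExpr, quasi-likelihood test, no block). P-values were adjusted by Benjamini-Hochberg over all genes tested; calls took an adjusted p no higher than 0.05 together with a 1.1-fold or larger change. Each library is 1 mouse. Within a depot the p-values rest on a spread estimated over all 6 libraries, with 3 residual degrees of freedom, and moderated across genes. Whether equal replicate numbers mark the same mouse is not given in the labels. The fits were tested on simulated data. In EC-like cells, 13% of simulated 2-fold changes were called in eWAT and 4% in iWAT. For 4-fold changes these shares were 81% and 64%. Of the genes left unchanged, 12 were called in eWAT and 8 in iWAT, beside 13 and 81 true calls in eWAT and 4 and 64 in iWAT. Alternatives were DESeq2 1.42.0, library-size scaling, no filter, a replicate block, thinning to 700 UMIs, removing doublets, other resolutions, assigning cells singly, and leaving out each library. Gene names and promoters came from the files and RefSeq; 7 of the 10 genes had a promoter entry. The genes and lists were chosen with earlier results of these data known. The named genes are the 10 genes in every class where they were tested, listed pathway genes that were called, and for each of the 10 up to 3 genes with the most similar class pattern. Differences between groups are fitted log2 changes with standard errors.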

Additional observations from a re-analysis of the deposited data

Results flagged for a closer look

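Flt1 in macrophage-like cells was flagged because the rosiglitazone and vehicle libraries of ob/ob mice lay in opposite order in the 2 depots. In eWAT it was 2.66 and 2.59 CPM in ob/ob-Veh and 2.39 and 2.24 CPM in ob/ob-Rosi, and in iWAT 2.08 and 5.15 CPM against 9.14 and 6.46 CPM. The eWAT order by CPM did not carry over to the fit, which scales libraries by TMM: the fitted log2 changes were 0.029 and 1.355, a difference of 1.326, and this difference was not tested. The EC markers in macrophage-like cells summed to 19.7 to 27.3 CPM in ob/ob-Veh and 24 to 30.7 CPM in ob/ob-Rosi of eWAT, and to 20.8 to 41.4 CPM and 77.2 to 109 CPM in iWAT; their part was not tested.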

How the results depend on the processing

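With 2 mice a group, 34 changes of the 10 genes were called over all classes and contrasts. They are not separate findings, since some classes hold others (APC-like holds preadipocyte-like and progenitor-like cells) and the contrasts share libraries. The share of all genes called stands with each class above. Of the 34, 17 were kept in every other setting apart from left-out libraries, and 5 with each library left out. Throughout, 4 were kept, namely Flt1 in preadipocyte-like and Angpt2 in macrophage-like cells of eWAT, each counted for both effects. In these settings 0 took the opposite direction. Capillary EC-like cells were not refitted without the adipocyte-led cluster; in EC-like cells without it, Nrp1 in eWAT had an ob/ob effect of -1.64, opposite to the capillary call. Counts of UMIs limit Vegfc, Angpt1 and Vegfa in ECs, and classes under 20 cells gave no value. The class with the highest level stayed the same for each of the 10 genes in each depot under the alternatives run, except that of Vegfb in eWAT, which was B-like with cells assigned singly.

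In EC-like cells, where 0 were called, the eWAT ob/ob effect had 1 in capillary EC-like cells alone, 4 without adipocyte-led clusters and 0 to 1 with a library left out. The eWAT Rosi effect had 2 without the filter, 2 with a replicate block, 1 at resolution 0.5, 1 in capillary cells, 5 without adipocyte-led clusters and 0 to 1 with a library left out. For ob/ob-Rosi against WT-Veh in eWAT there was 1 without the filter, 1 with the block and 0 to 0 with a library left out. In iWAT the ob/ob effect had 2 by DESeq2, 1 by library size alone, 1 without the filter, 4 with the block, 1 without adipocyte-led clusters and 0 to 1 with a library left out. The iWAT Rosi effect had 3 with the block and 0 to 2 with a library left out, and ob/ob-Rosi against WT-Veh had 1 by DESeq2, 2 without the filter, 2 with the block, 1 in capillary cells, 1 without adipocyte-led clusters and 0 to 2 with a library left out. The depot difference of the Rosi effect had 1, Angpt2, without the filter.

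Over APC-like and macrophage-like cells, the 6 calls for the eWAT ob/ob effect became 1 to 7 with a library left out (1 without ob/ob-Veh 1, 2 without WT-Veh 1, 3 without WT-Veh 2), and the 8 for the Rosi effect became 4 after thinning and 1 to 7 with a library left out (1 without ob/ob-Rosi 2, 3 without ob/ob-Veh 1). In iWAT the 3 calls for the ob/ob effect became 5 by DESeq2, 6 without the filter, 6 with the block, 1 after thinning, 0 with cells assigned singly, 1 without LAM-like cells and 0 to 4 with a library left out (0 without either ob/ob-Veh library). The 2 for the Rosi effect became 6 by DESeq2, 4 by library size alone, 8 without the filter, 7 with the block, 0 with cells assigned singly, 4 at resolution 2, 3 without LAM-like cells and 0 to 8 with a library left out. The cause of these differences was not tested. For most alternatives in this section the share of all genes called is not given here, so these counts say only how the calls moved.

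Leaving out adipocyte-led ECs, keeping mixed EC clusters and leaving out LAM-like cells or macrophage-led APC clusters were chosen after seeing the data; the last changed no count. Same-numbered libraries deviated together with correlations of 0.178 to 0.587 in EC-like cells and 0.014 to 0.734 in APC-like cells, but there are only 2 numbers and the labels do not tie them, so they are not taken as pairs; the block lost 0 of the 34 calls, and no crossed pairing was made.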

Other observations

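The endothelial sub-clusters of iWAT differed in these genes when pooled over libraries. Aplnr was 154 CPM in the venous-marked cluster, 116 CPM in a cluster led by Kit, Col15a1 and Plxnd1, and 5.49 CPM in the arterial-marked cluster, and the Kit-led cluster also held Angpt2 at 60.9 CPM. In eWAT, Kdr was 1701 CPM in a cluster led by Tmigd1, where Aplnr was 19.1 CPM, and 359 CPM in the proliferating cluster, where Aplnr was 83.2 CPM. Vegfc within the endothelium was 45.9 CPM in an eWAT cluster led by Vwf, Clu and Gja5, which was left unnamed, and 45 CPM in the arterial-marked cluster of iWAT. Of the 1549 cells of the Kit-led cluster, 1415 came from ob/ob-Rosi 1, and of the 291 of the Tmigd1-led cluster 193 came from WT-Veh 2. Clusters were made from these cells, so the values are a description.

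In macrophage-like cells other genes of the lists moved too. In eWAT, where 27.1% and 28.8% of all genes were called, Plxnd1 (1.34), Sema3c (2.18), Notch1 (1.41) and Hif1a (1.51) rose in ob/ob-Veh and all of them fell with rosiglitazone, by log2 changes of -1.14, -3.06, -1.42 and -1.56 (edgeR quasi-likelihood test), as did Sema3e (-4.02) and Svep1 (-1.59). Of the 13 dissociation-response genes 8 rose in ob/ob-Veh and 9 fell with rosiglitazone. In iWAT, where 14.3% were called, Vegfd (2.34), Svep1 (2.03), Sema3c (4.38), Sema3d (2.95), Sema3e (4.28) and Sema3b (2.11) rose in ob/ob-Veh, where APC markers in macrophage-like cells summed to 5707 and 6269 CPM against 906 to 2223 CPM in the other libraries. For the Rosi effect in iWAT, where 22% were called, Vegfd (-1.77), Svep1 (-1.78), Sema3c (-2.41), Sema3d (-2.21), Sema3e (-3.84), Sema3b (-1.97) and Nrp2 (-0.91) fell and Tie1 (2.08), Ptprb (1.72) and Robo4 (2.00) rose.

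Over 16 points, each a main class of a depot or the adipocyte-led eWAT cluster with mural markers, and 10270 genes, the genes most like Flt1 in log2(CPM + 1) were Mmrn2 (Pearson's r = 0.974), Btnl9 (0.973) and Cyyr1 (0.967). Those most like Kdr were Ccdc85a (0.967), Clec14a (0.965) and Ablim3 (0.961), and Mmrn2 and Clec14a were themselves among the markers that named ECs. For Aplnr the first was Erg (0.973), for Tek Ly6c1 (0.95), for Angpt2 Pnpla2 (0.927) and Pparg (0.912), for Angpt1 Trpc1 (0.932), for Nrp1 Frmd4a (0.911), for Vegfb Optn (0.858) and for Vegfa Prdx6 (0.799). The mean of Vegfc over libraries was at most 18.2 CPM in these classes, and its first gene was Tsen15 (0.916). The points share libraries, so no p is given.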
